A study of Homo sapiens with 6 samples.

Results

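The ERBB2 neighbourhood at 17q12 was described through 80 deposited intervals, of 73341 in all, that lie in the 1.05 Mb between 37.55 and 38.6 Mb of human chromosome 17 (build hg19). Each interval was assigned to the gene whose span holds it or lies nearest to it, among 10 genes: MED1, CDK12, PPP1R1B, STARD3, ERBB2, GRB7, IKZF3, ORMDL3, RARA and TOP2A. By list, these were 32 of 5216 EHF peaks of replicate 2, 1 of 1537 of replicate 1, 16 of 31950 H3K4me1 regions and 31 of 34638 H3K27ac regions. The window was chosen by its EHF replicate 2 scores and its mark levels, which are high on this stretch of chromosome 17, so that all levels below are descriptions with no test. Gene copies were not measured, and the word amplicon describes the locus as it is known and not a result of these lists.

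The study used chromatin immunoprecipitation and sequencing in Calu-3, an established human line from a lung adenocarcinoma, grown in low-glucose DMEM with serum and with no genotype or treatment that differs between libraries. It asked where EHF, a transcription factor of epithelia that belongs to the ETS family, binds and how the sites relate to H3K4me1, a histone mark of enhancers, and H3K27ac, a mark of active enhancers and promoters. There are 2 EHF libraries called against 1 input library, and 1 library of each mark called against a second input. Depth was 10176290 and 8418631 tags in EHF replicates 1 and 2, 12989646 in H3K4me1 and 21426939 in H3K27ac, and whether the EHF libraries came from separate cultures is not given in the labels.

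ERBB2 encodes HER2, a receptor tyrosine kinase that has no ligand of its own and signals by pairing with the other receptors of its family. In breast, stomach and some lung tumours the segment that holds it is copied many times over, together with neighbours such as STARD3 and GRB7, and Calu-3 is a line known for ERBB2 amplification. ETS factors bind sites with the core GGAA, and such a site is known from an ERBB2 promoter. Whether that site lies in the ERBB2 promoter printed below was not examined.

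The promoters of ERBB2, STARD3 and CDK12 are printed to show how ETS cores lie at gene starts of the window that had both H3K27ac and an EHF peak beside them. They run from 250 bases before to 50 after the annotated start, 5′ to 3′ on the gene's strand, and come from RefSeq on build GRCh38.p14, whose coordinates cannot be set against the hg19 positions of the intervals. Capitals mark CGGAAG or AGGAAG on either strand, so CTTCCG and CTTCCT on the printed strand are matches too. ERBB2 is at chr17:39687844-39688143 (plus strand), STARD3 at chr17:39636894-39637193 (plus strand) and CDK12 at chr17:39461236-39461535 (plus strand).
ERBB2: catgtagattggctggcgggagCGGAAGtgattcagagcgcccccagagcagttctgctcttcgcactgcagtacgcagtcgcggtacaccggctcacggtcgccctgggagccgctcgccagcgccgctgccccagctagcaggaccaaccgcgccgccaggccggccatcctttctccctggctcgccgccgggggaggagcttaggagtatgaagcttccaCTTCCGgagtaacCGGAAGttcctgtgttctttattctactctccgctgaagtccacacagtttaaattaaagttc
STARD3: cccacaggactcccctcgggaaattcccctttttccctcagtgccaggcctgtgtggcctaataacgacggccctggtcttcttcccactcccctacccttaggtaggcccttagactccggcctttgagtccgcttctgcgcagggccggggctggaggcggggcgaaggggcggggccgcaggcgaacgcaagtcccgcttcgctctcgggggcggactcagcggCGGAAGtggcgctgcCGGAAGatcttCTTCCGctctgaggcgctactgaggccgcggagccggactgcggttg
CDK12: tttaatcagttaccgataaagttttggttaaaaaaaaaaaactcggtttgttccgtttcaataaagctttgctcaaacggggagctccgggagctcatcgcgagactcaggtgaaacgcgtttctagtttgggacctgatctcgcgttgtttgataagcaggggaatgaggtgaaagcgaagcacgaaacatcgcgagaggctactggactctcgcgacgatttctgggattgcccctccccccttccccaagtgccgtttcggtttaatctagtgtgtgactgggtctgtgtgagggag

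The listed ERBB2 promoter held 3 matches, all CGGAAG, at 228, 26 and 13 bases before the start it belongs to. Other starts of ERBB2 were not scanned. The 2 matches nearest the start, on opposite strands, extend to CCGGAAGT, which occurred on either strand in 4.14% of the 35116 promoters of the table and in none of the other promoters of these genes. STARD3 also held 3 matches of CGGAAG, 2 of them just before the start, and CDK12 held none. Of the 11 promoters that the table lists for 7 of the genes, 6 held CGGAAG or AGGAAG (54.5%), against 46.9% of all promoters in the table, and all 11 held GGAA, against 95.5%. By gene, 6 of 7 had CGGAAG or AGGAAG, with ORMDL3 and RARA counted through 1 of their 3 listed promoters each. The share by gene over the whole table was not computed, so nothing is read from the count by gene. A match is a description of the letters and not a bound site, and the sequence under the EHF peaks was not read.

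All but 1 of the EHF peaks here come from replicate 2, so every EHF value below rests on that library. Replicate 1 had 1 peak, at 37650805 to 37650955 inside CDK12, with a score of 11, where a score is the authors' count of tags in an interval scaled to a library of 10000000 tags. No replicate 2 peak lay there, and 0 of the 32 replicate 2 peaks met a replicate 1 peak. A count of 0 leaves room for a share of 9.38% by 3 counts of the 32, and of 10.9% by the exact 95% binomial interval. Over the whole replicate 2 list 14.7% did. Why the replicates differ here was not tested.

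The levels were uneven across the window and highest from STARD3 to the far side of ORMDL3. Within 345 kb, from 37793000 to 38137832, the 15 EHF replicate 2 peaks scored 80 to 693 (median 176), against 14 to 71 (median 26) for the other 17 peaks of the window. The 4 H3K4me1 regions there, which lay from STARD3 to GRB7 and not beyond, had 527 to 937 score per kb of region, against 55.9 to 192 in the other 12. The 10 H3K27ac regions there had 776 to 2663 score per kb, against 55.4 to 466 in the other 21. By score not divided by width the marks did overlap. H3K27ac regions scored 682 to 12558 in the stretch and 36 to 2923 elsewhere in the window. H3K4me1 regions scored 264 to 744 and 28 to 302. These bounds were drawn after the values were seen. The lack of overlap in EHF score and in mark score per kb therefore describes where the break lies and is not a test. Scores are tag counts and the lists hold no input tags per interval, so more gene copies and more signal per copy cannot be told apart.

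**Figure D1:**
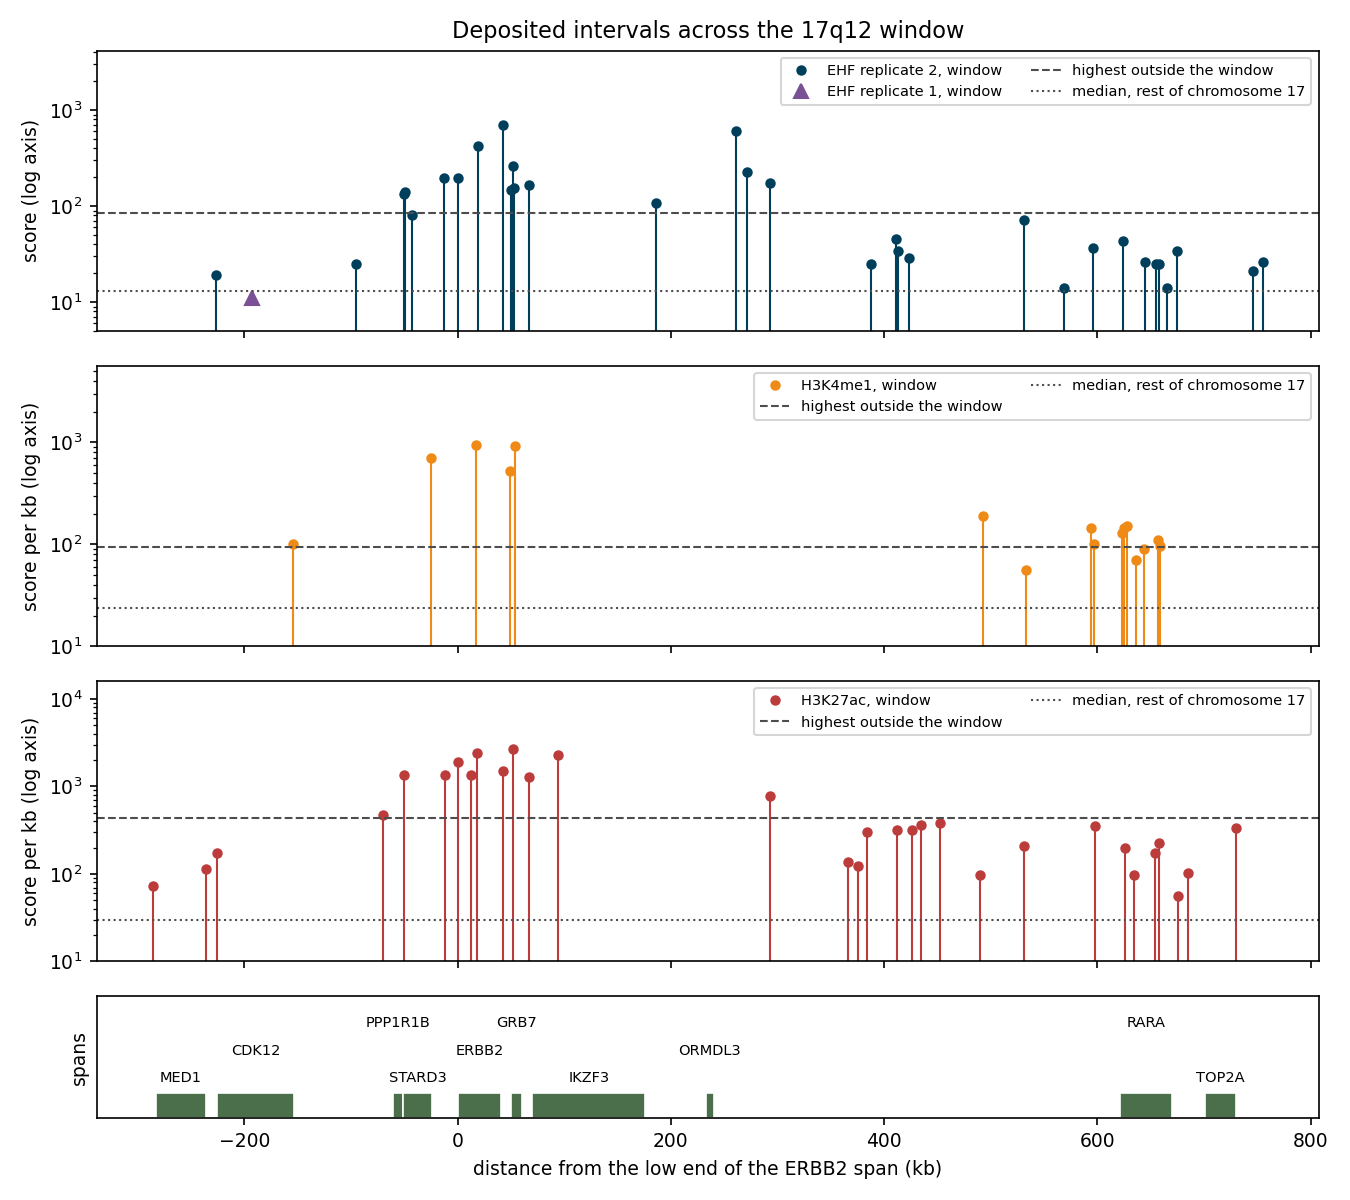
Each point is a deposited interval, plotted by distance in kb from the low end of the ERBB2 span, with its score (EHF) or score per kb of region (marks) on log axes. Dashed lines give the highest value of that list outside the window and dotted lines the median on the rest of chromosome 17. The points from STARD3 to past ORMDL3 stand highest in all 3 panels, with EHF replicate 2 scores up to 693. In the H3K4me1 panel those points end at GRB7. The single EHF replicate 1 peak scored 11.

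Beside the rest of chromosome 17, the window's H3K27ac regions had a median of 319 score per kb (31 regions), against 29.9 (1260 regions). For H3K4me1 the medians were 136 (16 regions) and 23.6 (969 regions), and for EHF replicate 2 scores 58 (32 peaks) and 13 (287 peaks). Part of the higher level extends past the window: in the 1 Mb on each side the medians were 84.0 for 39 H3K27ac regions, 41.9 for 24 H3K4me1 regions and 20 for 43 EHF replicate 2 peaks. The window held 0.0895% of all H3K27ac regions and 1.95% of the summed H3K27ac score, 0.0501% and 0.569% for H3K4me1, and 0.613% and 5.67% for EHF replicate 2. EHF replicate 2 peaks of the window took ranks 1 to 14 of the list, and 11 H3K27ac and 13 H3K4me1 regions had more score per kb than any region outside the window. The scores of 3 EHF peaks and 9 H3K27ac regions exceeded 2376 and 933 per kb, which 1 tag per base on each strand would give at these depths. These scores therefore count repeated tags, although the headers give 1 as the maximum of tags considered per bp. How that setting enters the deposited scores was not examined. No interval outside the window exceeded these levels, and the share of repeated tags was not examined.

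ERBB2, spanning 37.844 to 37.885 Mb, carried H3K27ac over 17.5% of its span, in 3 regions, with EHF peaks in 2 of them. The region over the low end of the span, taken here as the start, lay at 37843416 to 37845258 with a score of 3512 (1906 per kb). An EHF replicate 2 peak with a score of 197 lay at 37844286 to 37844410, 286 bp inside the span. A region without an EHF peak followed at 37855478 to 37857750, with a score of 3108 (1367 per kb). Whether ERBB2 transcripts also start in that second region was not examined. The strongest of the 3 lay at 37860626 to 37864274, with a score of 8902 (2440 per kb), the second highest of all 34638 H3K27ac regions by score. It held the H3K4me1 region with the highest score of that list, at 37860928 to 37861721 with 744 (937 per kb), and an EHF peak with a score of 419 at 37863460 to 37863584. Inside that H3K27ac region the H3K4me1 region and the EHF peak lay 1739 bp apart, the first near one edge and the second 79.4% along it.

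The EHF peak with the highest score of replicate 2, 693 at 37886709 to 37886833, lay 1709 bp past the high end of ERBB2, between it and GRB7. It stood near the middle (54.6%) of an H3K27ac region with a score of 2158 (1497 per kb) and 6201 bp from the nearest H3K4me1 region. The GRCh38 gene table lists MIEN1 between ERBB2 and GRB7, so the peak is assigned to ERBB2 by distance alone.

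GRB7, an adaptor protein that binds activated receptor tyrosine kinases including HER2, had the highest H3K27ac level of the 10 genes. A single H3K27ac region, at 37893138 to 37897853, took first place in the whole list by score (12558) and by score per kb (2663, or 88.9 times the median on the rest of chromosome 17). It covered 38.5% of the GRB7 span, which runs from 37.894 to 37.904 Mb, including its low end. H3K4me1 regions lay across both of its edges, with scores of 264 at 37893034 to 37893534 and 579 at 37897243 to 37897868. Between them were 3 EHF replicate 2 peaks, with scores of 149 at 37894069 to 37894193, 264 at 37895851 to 37895975 and 156 at 37896926 to 37897050. These peaks lay 535, 1268 and 193 bp from the nearer H3K4me1 region, with EHF in the inner part of the region and H3K4me1 at its borders.

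STARD3, which carries cholesterol between late endosomes and other membranes, had H3K27ac at its start and EHF peaks inside and beside it. The H3K27ac region at 37792997 to 37793984 scored 1327 (1343 per kb) and held an EHF peak with a score of 134 at 37793331 to 37793455. A second EHF peak, with a score of 141 at 37794318 to 37794442, lay 334 bp past that region, and another, with 80 at 37801442 to 37801566, lay 7458 bp past it. An H3K4me1 region with a score of 470 (695 per kb) stood near the far end of STARD3, at 37818990 to 37819665, with no H3K27ac within 10932 bp. Between STARD3 and ERBB2, where the gene table lists TCAP, PNMT and PGAP3, an H3K27ac region at 37830597 to 37832862 scored 3086 (1362 per kb) and held an EHF peak with a score of 197.

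PPP1R1B encodes DARPP-32, an inhibitor of protein phosphatase 1 best known from neurons that respond to dopamine. Of its span of 10 kb, from 37.783 to 37.793 Mb, H3K27ac covered 3 bp, which belong to the region over the STARD3 start and are below the resolution of the span. The nearest interval of its own was an H3K27ac region with a score of 372 (466 per kb), 8266 bp before its low end. An EHF replicate 2 peak with a score of 25, 34103 bp before that end, is assigned to it by distance.

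**Figure D2:**
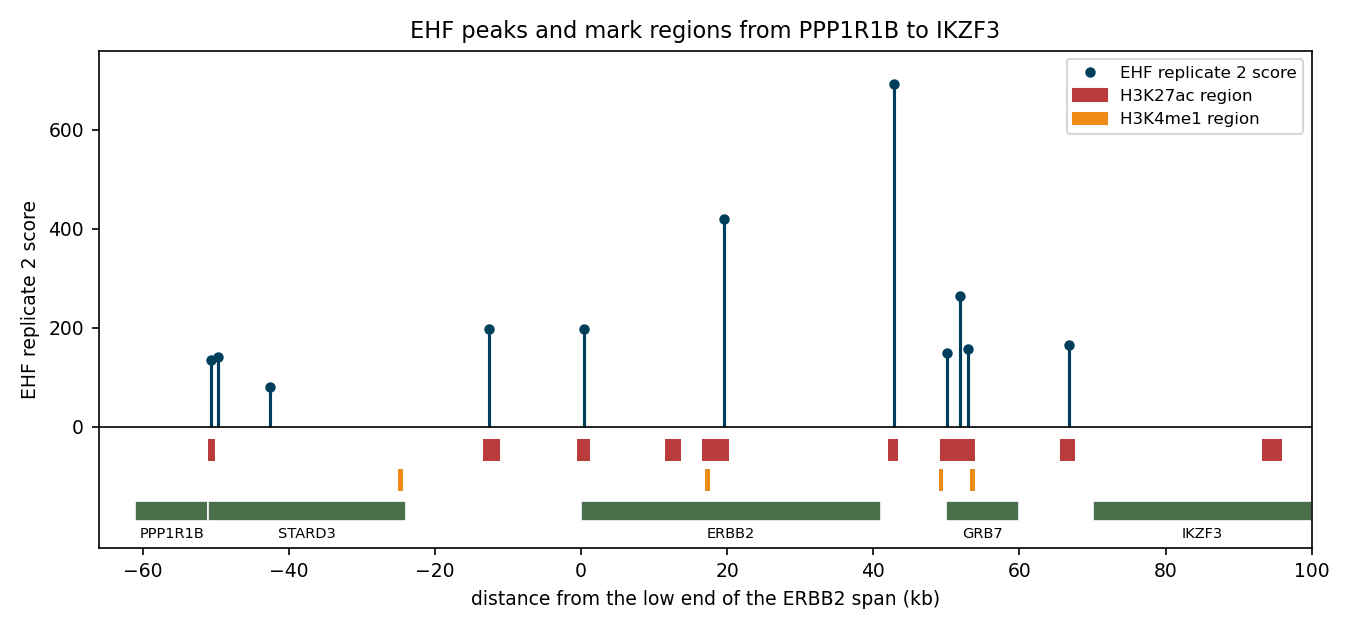
EHF replicate 2 peaks (lines with points, height is the score) above H3K27ac regions, H3K4me1 regions and gene spans drawn to scale, by distance in kb from the low end of the ERBB2 span. The 3 EHF peaks at GRB7 (149, 264 and 156) lie in 1 H3K27ac region with an H3K4me1 region over each edge, and the highest peak (693) lies between ERBB2 and GRB7.

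**Figure D3:**
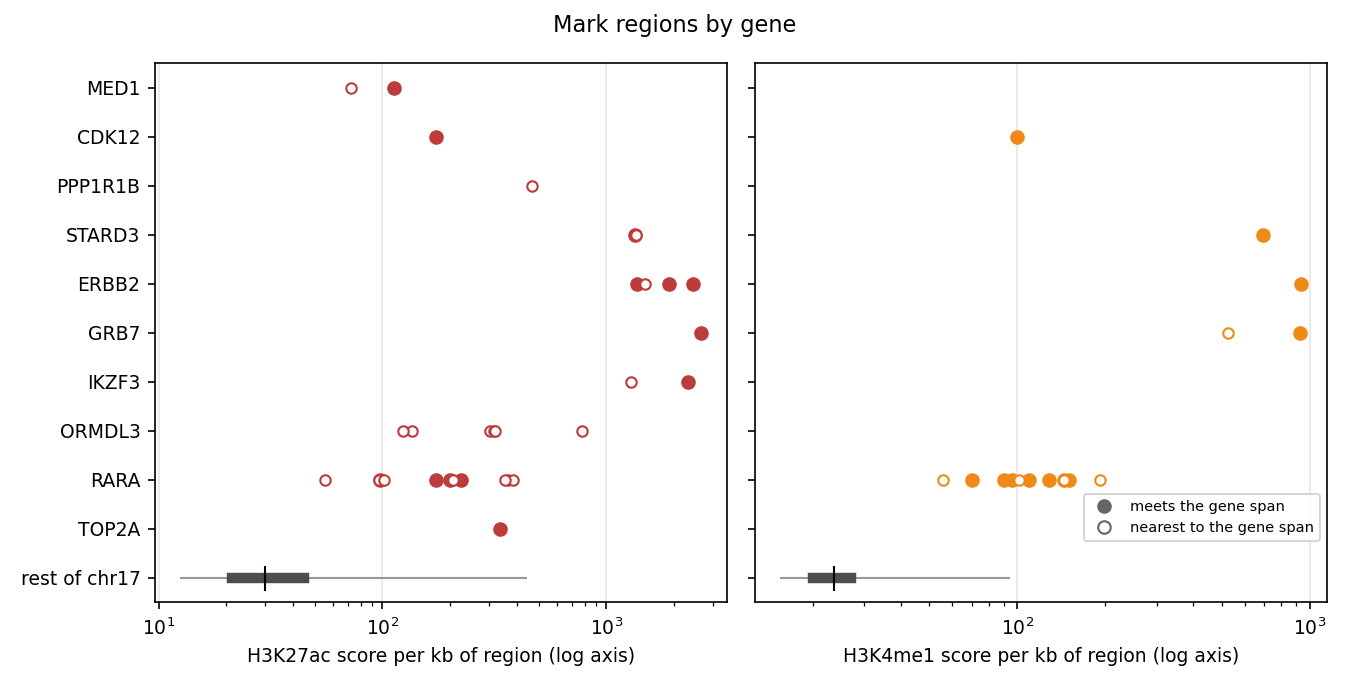
Score per kb of each H3K27ac (left) and H3K4me1 (right) region by assigned gene, on log axes, with filled points for regions that meet the span and open points for regions nearest to it. In the last row the thin line is the range, the thick line the quartiles and the tick the median of the rest of chromosome 17. GRB7 had the highest H3K27ac value (2663) and ERBB2 the highest H3K4me1 value (937), while MED1 had 113 and 72.4 for H3K27ac.

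The genes of transcription control at the low end of the window, MED1 and CDK12, carried H3K27ac at their starts, at lower levels. The nearest H3K4me1 region lay 81720 bp from the MED1 start and 71720 bp from the CDK12 start. MED1 is the Mediator subunit that contacts nuclear receptors, and its start lay in an H3K27ac region with a score of 185 (113 per kb). Outside the window, 187 H3K27ac regions (0.540%) had at least the score per kb of that region, and 2.54% of the regions on the rest of chromosome 17 did. Another region, with a score of 103 (72.4 per kb), lay 2248 bp before the low end of MED1, and 1429 regions outside the window (4.13%) had at least its level. CDK12 is a kinase of RNA polymerase II in elongation, and the H3K27ac region over its start scored 364 (173 per kb), a level that 18 regions outside the window reached. An EHF replicate 2 peak with a score of 19 lay in that region, 492 bp before the start, and no EHF peak of either replicate was assigned to MED1. At the far end of CDK12 an H3K4me1 region with a score of 50 (99.8 per kb) lay 70663 bp from any H3K27ac region. From the CDK12 start to the region before PPP1R1B there was a stretch of 155 kb with no H3K27ac region.

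RARA, the retinoic acid receptor alpha, had the largest number of intervals of the 10 genes, with less score per kb of region than those from STARD3 to GRB7. Its span, from 38.465 to 38.514 Mb, met 16 intervals: 5 EHF replicate 2 peaks, 7 H3K4me1 regions and 4 H3K27ac regions. H3K27ac covered 30.3% of it and H3K4me1 15.8%, the second highest and the highest coverage among the 10 spans. The longest H3K27ac region of the window, 9875 bp at 38465414 to 38475288, began 414 bp after the kb-rounded start and had a score of 1972 (200 per kb), so its score was spread over more bases than at ERBB2 or GRB7. Per kb of gene span, RARA had a summed H3K27ac score of 59.0 and an H3K4me1 score of 18.6, against 351 and 18.1 in ERBB2 and 1026 and 57.8 in GRB7. The longest region held 3 H3K4me1 regions, with scores of 200, 302 and 95. Its EHF peak, with a score of 43 at 38467940 to 38468064, sat in the gap between the first 2 of them, 259 bp from the nearer. The other 4 EHF peaks of the span scored 14 to 26, and 2 of them lay in H3K27ac regions. All 7 H3K4me1 regions of the span had 69.9 to 150 score per kb, against a median of 23.6 on the rest of chromosome 17.

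IKZF3 encodes Aiolos, a zinc finger factor of lymphoid cells, and its span of 106 kb met 1 interval. That interval, an H3K27ac region at 37937202 to 37939903, had rank 3 of the list by score, 6250 (2313 per kb). It held no EHF peak and no H3K4me1 region. It was followed by 197 kb without any H3K27ac region, which took in the rest of IKZF3 and all of ORMDL3. The high end of IKZF3 lay 80097 bp from the nearest H3K27ac region and the low end 2372 bp from one at 37909585 to 37911628, which had a score of 2629 and held an EHF peak of 165.

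ORMDL3, a membrane protein of the endoplasmic reticulum that restrains sphingolipid synthesis, had no interval of any list in its span of 7 kb. Its start lay 52954 bp from the nearest H3K27ac region and 21476 bp from the nearest EHF peak. That peak, at 38105476 to 38105600, had the second highest score of replicate 2, 603, and the next, at 38115368 to 38115492, scored 225. Neither lay in a mark region, with H3K27ac 31354 and 21462 bp away. With a peak of 109 beyond the high end of IKZF3, these were the 3 EHF peaks within the 197 kb that lacked H3K27ac.

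TOP2A, the topoisomerase that untangles DNA in dividing cells, had 1 interval in its span, an H3K27ac region over its start at 38573369 to 38575000 with a score of 547 (335 per kb). It held no EHF peak, and the 2 EHF peaks beyond the gene, with scores of 21 and 26, lay 16180 and 25456 bp past its high end.

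Over the 10 genes, 9 spans held some H3K27ac, PPP1R1B by 3 bp alone, 5 met an H3K4me1 region and 4 met an EHF replicate 2 peak. The strand was known from the promoter table for 7 genes, and the span end on that side was taken as the start. H3K27ac lay over 5 of these starts, and other starts of the same genes were not examined. The exceptions were RARA, whose region began 414 bp away, within the rounding of the span, and ORMDL3. Of the 80 intervals, 38 met a span and 42 are assigned by distance, and the gene table lists 20 other protein-coding genes between MED1 and TOP2A.

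EHF scores were alike on both sides of each end of the window. The last EHF replicate 2 peak inside, 420 bp from the upper end, and the first outside, 1635 bp past it, both scored 26. At the lower end the first peak inside scored 19, at 67384 bp, and the last outside 18, at 41951 bp. The first H3K27ac region inside the lower end, at 7330 bp, had 72.4 score per kb and the last outside it, at 192379 bp, 323. At the upper end the last inside, at 25000 bp, had 335 and the first outside, at 5568 bp, 57.9. For H3K4me1 these values were 99.8 inside and 89.8 outside at the lower end, and 95.7 inside and 51.9 outside at the upper end. Those regions lay 139720 and 155113 bp from the lower end, and 96466 and 5574 bp from the upper end.

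Most EHF peaks of the window lay in H3K27ac regions and none in an H3K4me1 region. Of the 32 replicate 2 peaks, 18 met an H3K27ac region (56.3%, exact 95% binomial interval 37.7% to 73.6%), where 63.8% of the whole list did, a share inside that interval. None met an H3K4me1 region, where 7.98% of the whole list did. With 32 peaks a count of 0 leaves room for 9.38% by 3 counts and 10.9% by the exact interval, so a lower share was not detectable at this number. An H3K4me1 region lay within 500 bp of 3 peaks (9.38%), where 25.2% of the whole list had one, and within 2000 bp of 10 (31.3%), where 42.3% did. The 18 peaks in H3K27ac scored 19 to 693 (median 142) and the 14 others 14 to 603 (median 27.5), and these ranges overlap almost completely.

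Across the 18 peaks in H3K27ac, higher EHF scores went with higher region levels, with a Spearman rho of 0.80. The peaks fell into 2 separate groups. From STARD3 to past ORMDL3 the 10 peaks of 134 to 693 lay in regions of 776 to 2663 score per kb, with a Spearman rho of 0.10 across peaks. Elsewhere in the window the 8 peaks of 19 to 71 lay in regions of 173 to 354 score per kb, with a rho of 0.43. Peaks in 1 region share its value and all share the same libraries and the same stretch of chromosome, so these are descriptions. The 2 groups are set by bounds drawn after the values were seen, and EHF scores and mark levels chose the window. Nothing is therefore read from the rho values. Gene copies, which were not measured, cannot be told apart from either value.

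**Figure D4:**
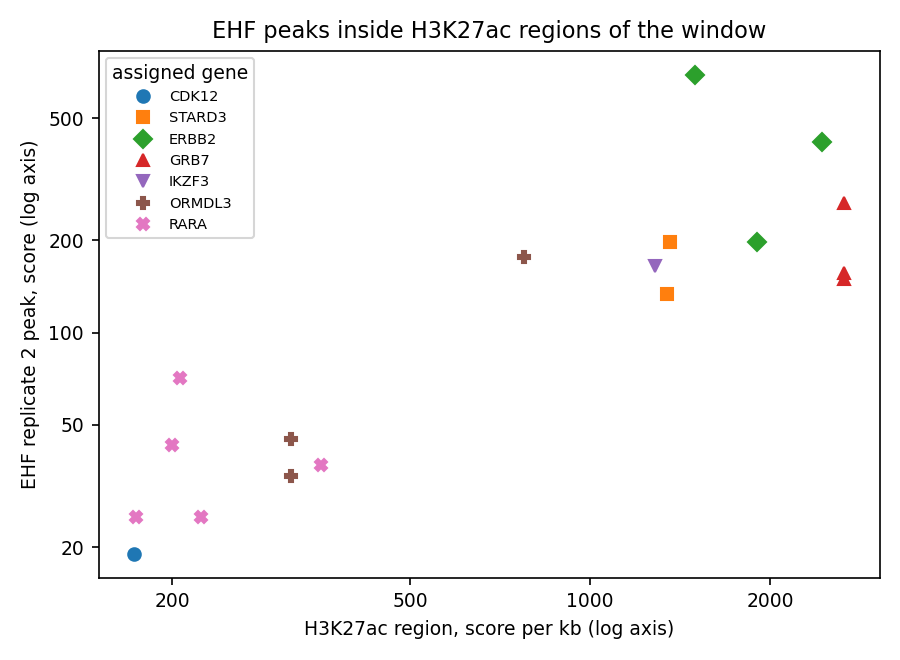
Score of each of the 18 EHF replicate 2 peaks inside an H3K27ac region of the window (vertical, log axis) against the score per kb of that region (horizontal, log axis), with the assigned gene as the symbol. The 10 peaks from STARD3 to past ORMDL3 form 1 group at the upper right and the 8 others 1 group at the lower left, and within the first group the highest peak (693) does not lie in the region with the highest level (2663).

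The marks met each other at ERBB2, at GRB7 and around RARA. Of the 31 H3K27ac regions, 5 met an H3K4me1 region (16.1%, exact 95% binomial interval 5.45% to 33.7%), where 34.5% of the whole list did, and they were the ERBB2 region of 8902, the GRB7 region of 12558 and 3 in or before RARA. Of the 16 H3K4me1 regions, 9 met H3K27ac (56.3%, 29.9% to 80.2%), where 45.2% of the whole list did. Of the 31 H3K27ac regions, 15 held an EHF replicate 2 peak (48.4%, 30.2% to 66.9%), where 8.99% of the whole list did, a count from which nothing is read, since EHF scores chose the window. From the GRB7 region to one before RARA, 439 kb held no H3K4me1 region, although it held 9 EHF replicate 2 peaks with scores of 25 to 603.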

How the data were processed

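ChIP-seq of EHF (2 libraries), H3K4me1 (1) and H3K27ac (1) from Calu-3 cells was used as the 4 deposited interval lists, and the 2 input libraries and the reads were not analysed here. Bowtie 1.0.0, HOMER 1.2 and hg19 are named in the submitters' processing notes. HOMER findPeaks was run on each library alone, per the file headers, with the style set to factor (EHF) or histone (marks). The headers give a false discovery rate of 0.01, with 4-fold over input and 4-fold over the surrounding 10 kb required. The input rule removed 2953 of 4764 putative peaks in EHF replicate 1 and 2790 of 8248 in replicate 2. In the mark lists it removed 2970 of 226300 for H3K4me1 and 2020 of 461464 for H3K27ac. How many of these lay in the window is not given in the headers. The local rule removed 274 and 239 putative peaks in EHF replicates 1 and 2, and 0 in either mark list. The deposited score is, per the file headers, a tag count that the authors scaled to 10000000 tags and rounded. An interval missing from a list only failed these rules, and stitching of 500 bp windows sets region widths.

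Positions were read as 1-based, the window and gene spans (rounded to 1 kb, so ends are known to about 500 bp) come from the rule for choosing members, and overlap meant at least 1 bp. The score was divided by width to give score per kb. Gene strands and promoters come from RefSeq tables on GRCh38.p14, with sequences for 7 of the 10 genes. The named items were the 10 genes, the EHF peaks in a span or within 5 kb of a gene start, the 3 highest intervals of each list, the intervals at the ends of the window, and promoters of genes with H3K27ac over the start and EHF within 5 kb. Other intervals named, such as the EHF peaks beside IKZF3 and those between STARD3 and ERBB2, were chosen after their values were seen. Members, genes and motifs were chosen with earlier results of these data known. No test was made, because levels chose the window and each mark has 1 library. Exact (Clopper-Pearson) 95% intervals cover counting error only, and neighbouring intervals are not independent. The overlap code was checked on planted intervals (scipy 1.17.1, pandas 2.3.3, numpy 2.4.6 and matplotlib 3.10.9 under Python 3.11.15). Alternatives covered the overlap rule, merged regions, score minimums, the comparison set, gene start distance and motif.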

Additional observations from a re-analysis of the deposited data

How the results depend on the processing

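Of 44 alternative values, 39 stayed within the exact 95% interval of the main value (shares, and medians as ratios) or within 1.5 times it (counts). Leaving out either EHF library gave 1 to 32 EHF peaks in the window, 33 with both, and a share of 0% to 56.3% of them in H3K27ac, 54.5% with both, because replicate 2 holds nearly all of them. The median H3K27ac score per kb of the window was 10.7 times that of the rest of chromosome 17 but 3.80 times that of the 1 Mb on each side, and for H3K4me1 the ratios were 5.77 and 3.25; the cause was not tested. Some values inside their interval still moved by over 1.5 times. The share of H3K27ac regions that meet H3K4me1 was 16.1%, but 6.45% by the midpoint, and the H3K4me1 ratio was 9.85 by summed score over summed length. The EHF replicate 2 score ratio was 4.46, but 8.22 by the mean and 2.90 against the 1 Mb on each side. With CCGGAAGT as the motif, 1 of the 7 genes had a match, against 6 with CGGAAG or AGGAAG. No paired analysis was possible because no result comes from a test between groups. The number of intervals in the window limits the shares, with 32 EHF replicate 2 peaks and 16 H3K4me1 regions, and what depth limits was not tested.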

Other observations

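The 381 kb between ORMDL3 and RARA held 25 of the 80 intervals (31.3%) on 36.3% of the window, and none of the 10 genes lies there. The GRCh38 gene table lists 12 protein-coding genes between them: LRRC3C, GSDMA, PSMD3, CSF3, MED24, THRA, NR1D1, MSL1, CASC3, RAPGEFL1, WIPF2 and CDC6. The stretch held 11 H3K27ac regions (96.6 to 776 score per kb), 10 EHF replicate 2 peaks (scores of 14 to 603) and 4 H3K4me1 regions (55.9 to 192 score per kb). One H3K27ac region, at 38437312 to 38445557, was 8246 bp wide with a score of 2923, and held 2 H3K4me1 regions and an EHF peak with a score of 37 that lay 632 bp from the nearer of them. Another, at 38254480 to 38258334, held 2 EHF peaks, with scores of 45 and 34, and no H3K4me1 region. Which of the 12 genes each interval belongs to was not analysed here.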
